A study of Mus musculus with 6 samples.

Results

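Collagens are secreted or membrane-bound proteins built from three-stranded helices, and each gene here encodes 1 chain of such a helix. Fibrillar collagens give the dermis its tensile strength, type IV collagen forms the sheet of basement membranes, type VI forms beaded filaments around cells, type VII anchors the epidermis to the dermis, and type XVII is a transmembrane component of the hemidesmosome of basal keratinocytes. The genes were taken by their symbols alone, as every gene named Col followed by a type number, the letter a and a chain number. There were 44 such genes among the 31053 listed, and all 44 were located in the mouse genome.

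Dorsal skin of female C57BL/6 mice, 8 to 10 weeks old, was profiled by droplet-based single-cell RNA sequencing in 3 groups of 2 libraries. The Sham group had no treatment. In the IMQ group 62.5 mg of cream containing 5% imiquimod, a Toll-like receptor agonist that induces psoriasis-like inflammation, was applied to the back each day for 4 days. The IMQ+SHP099 group was given the same cream and 10 mg/kg of SHP099 (i.g.) each day for 4 days, a compound that blocks the phosphatase SHP2 allosterically. Each library pooled the skin of several mice, so the library was the replicate. P-values between groups set a difference against the spread between libraries, and the spread between single mice was not seen.

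The libraries held 7382 to 10293 cells after filtering, with a median of 5645 to 18263.5 unique molecular identifiers (UMIs, tags that each mark 1 captured molecule) per cell. IMQ+SHP099 replicate 1 was the deepest library and IMQ+SHP099 replicate 2 the shallowest. Pairs of libraries shared 12 to 30 cell barcodes. Cells were assigned to gates by marker genes that include no collagen, and 5.09% to 14.2% of the cells of a library stayed outside every gate. Among the 10 leading genes of each gate, 2 to 8 were markers of that cell type and none marked another, though immune or stress genes (C3 and Cxcl13 in fibroblasts, Krt16 and Krt6b in keratinocytes) stood among them. Levels are UMIs of a gene per 1000000 UMIs of the gate (UPM). Since a molecule was counted once, near its end, levels of different genes can be compared without dividing by length.

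The stretches before the start sites of 5 genes named in the results below are shown. Col3a1 had the highest mean level in fibroblasts, and Col8a1 was called higher in 2 fibroblast subsets and in mural cells. Col4a6 and Col4a5 lie head to head on the X chromosome and were both called lower in keratinocytes. Col17a1 is the leading collagen of keratinocytes. A relation of the motifs to levels or contrasts was not tested. The stretches are RefSeq promoter entries on GRCm38.p6, written 5′ to 3′ along the gene. Each ends at the start site or, where GENCODE places the start earlier, before that position. Capitals mark motif matches on either strand. The first motif searched was TATAAA, known from promoters with a fixed start. The next was the short motif CCAAT, bound by nuclear factor Y. The last was GGGCGG, bound by Sp1.
Col3a1, chr1:45311288-45311537, plus strand: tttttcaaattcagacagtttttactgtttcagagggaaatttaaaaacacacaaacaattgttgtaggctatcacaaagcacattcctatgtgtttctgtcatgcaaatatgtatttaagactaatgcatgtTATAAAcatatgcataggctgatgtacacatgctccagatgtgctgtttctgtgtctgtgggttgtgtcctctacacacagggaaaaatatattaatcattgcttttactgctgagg
Col8a1, chr16:57754738-57754987, minus strand: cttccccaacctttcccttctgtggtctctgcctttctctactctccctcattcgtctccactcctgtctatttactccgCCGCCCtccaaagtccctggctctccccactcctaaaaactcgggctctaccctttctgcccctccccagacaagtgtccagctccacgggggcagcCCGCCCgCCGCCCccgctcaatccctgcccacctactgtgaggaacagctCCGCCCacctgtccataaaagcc
Col4a6, chrX:141474077-141474326, minus strand: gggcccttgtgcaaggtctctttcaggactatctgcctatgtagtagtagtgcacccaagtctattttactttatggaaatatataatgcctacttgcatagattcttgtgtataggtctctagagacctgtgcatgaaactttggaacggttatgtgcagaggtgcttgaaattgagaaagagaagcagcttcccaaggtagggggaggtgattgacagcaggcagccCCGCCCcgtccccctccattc
Col4a5, chrX:141475169-141475384, plus strand: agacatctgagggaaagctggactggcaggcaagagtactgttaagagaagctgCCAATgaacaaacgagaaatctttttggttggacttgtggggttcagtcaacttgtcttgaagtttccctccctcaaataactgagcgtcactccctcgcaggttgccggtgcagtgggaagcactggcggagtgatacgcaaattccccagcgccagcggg
Col17a1, chr19:47692095-47692292, minus strand: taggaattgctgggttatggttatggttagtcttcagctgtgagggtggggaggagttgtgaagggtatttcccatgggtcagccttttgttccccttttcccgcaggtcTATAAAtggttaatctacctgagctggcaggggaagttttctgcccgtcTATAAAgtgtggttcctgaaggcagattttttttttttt
Col8a1 held 4 matches of GGGCGG in 250 bases, and 32.7% of the 32851 promoter entries hold at least 1 in a window of that length. Col17a1 held 2 matches of TATAAA in 198 bases, against 9.08% of entries with any. Col3a1 held 1 match of TATAAA, against 12.4% of entries, and neither of the other motifs. Col4a6 held 1 GGGCGG and Col4a5 held 1 CCAAT, a motif found in 30.5% of entries over the same 216 bases. The starts of Col4a6 and Col4a5 are 1308 bases apart on opposite strands. The other head-to-head pairs of type IV chains are closer, with 71 bases between Col4a4 and Col4a3 and annotated starts of Col4a1 and Col4a2 that overlap.

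Fibroblasts, the main makers of dermal matrix, held 59.6% to 89.2% of all collagen UMIs of a library. Of the 44 genes, 36 reached a mean of 5 UPM in at least 1 of the 5 main gates, and 16 of these were highest in fibroblasts, 10 in Schwann cells, 8 in mural cells, 1 in endothelial cells and 1 in keratinocytes. The other 8 genes (Col2a1, Col6a4, Col9a1, Col10a1, Col11a2, Col19a1, Col22a1 and Col25a1) stayed below 5 UPM in every gate. The 2 highest gates of each gene were compared within the 6 libraries by an exact two-sided sign-flip permutation test, which cannot go below p = 0.0312. Since the gates were ranked on the same libraries, the p-values describe how constant the order was. Of 18 genes tested, 12 differed between the 2 gates in the same direction in all 6 libraries (adjusted p = 0.0469). For 18 more genes 1 of the gates was Schwann cells, which held 10 cells in IMQ+SHP099 replicate 1, and their order is described only.

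**Figure D1:**
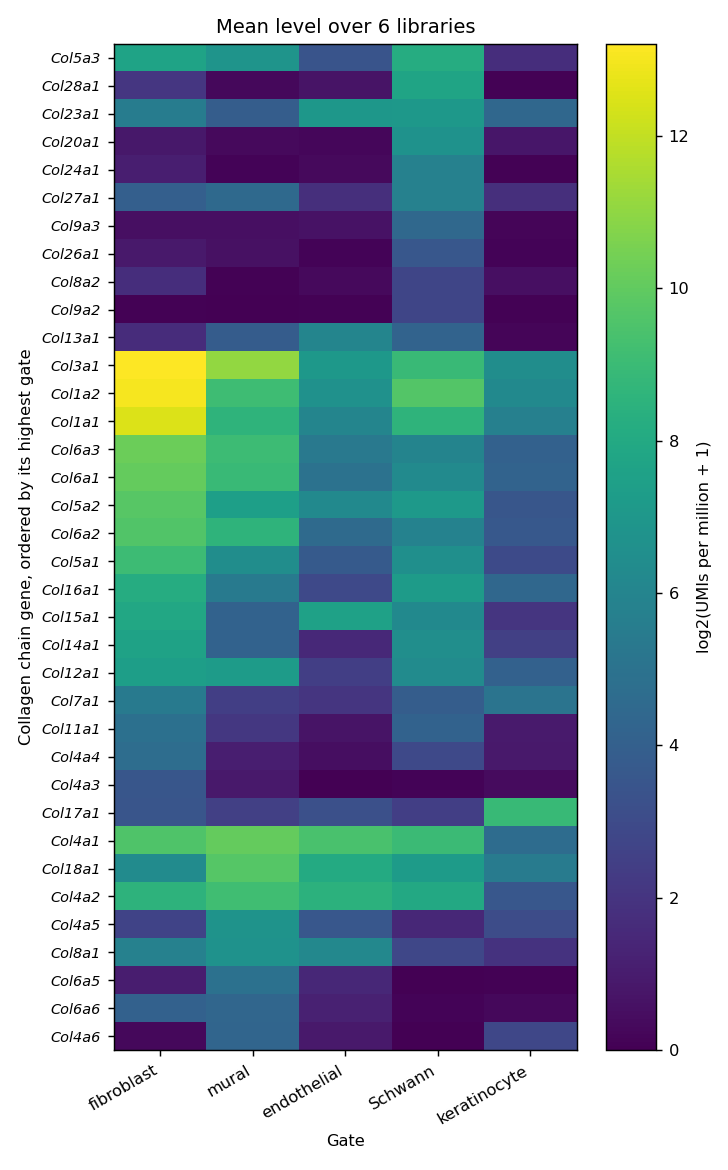
Mean level over the 6 libraries of the 36 collagen genes that reached 5 UPM, in 5 gates, as log2(UPM + 1) on the colour scale. The type I and type III chains fill the fibroblast column, while Col17a1 stands out in keratinocytes and Col28a1, Col20a1 and Col24a1 in Schwann cells.

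Among the 5 main gates, 6 of 9 fibrillar chains that reached 5 UPM were highest in fibroblasts. Col5a3, Col24a1 and Col27a1 were highest in Schwann cells. Col3a1, the single chain of type III collagen, averaged 9440 UPM in fibroblasts and 2173 UPM in mural cells, a difference of 2.15 ± 0.85 on the log2 scale (SD, n = 6). Col1a2 and Col1a1, the chains of type I collagen, averaged 8185 and 5818 UPM in fibroblasts, against 814.7 and 390.1 UPM in Schwann cells, the next gate. Col5a2, a regulator of fibril diameter, was 4.9-fold higher in fibroblasts than in mural cells. Col5a1, the partner of Col5a2, averaged 527.7 UPM in fibroblasts and 93.3 UPM in Schwann cells. Col4a3, a basement membrane chain, was low but 12.0-fold higher in fibroblasts than in mural cells. The type VI chains Col6a3, Col6a1 and Col6a2 were 2.29-fold, 2.22-fold and 2.02-fold higher in fibroblasts than in mural cells. Levels of Col12a1, which decorates fibrils, did not separate the same 2 gates (166.8 and 149.9 UPM, higher in fibroblasts in 2 of 6 libraries, exact permutation p = 0.5, adjusted 0.562).

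In mural cells, a gate of smooth muscle cells and pericytes, 4 of the 6 type IV chains were highest, while Col4a3 and Col4a4 were highest in fibroblasts. Col4a2 was 1.57-fold higher in mural cells than in fibroblasts, and Col18a1, whose end fragment is endostatin, was 3.15-fold higher than in endothelial cells. Within endothelial cells Col18a1 averaged 527.5 UPM in the blood vascular subset and 135.6 UPM in the lymphatic subset. Col4a5 averaged 108.3 UPM in mural cells and 11.1 UPM in endothelial cells, and Col4a6 averaged 19.0 UPM against 6.06 UPM in keratinocytes. In the pericyte subset, of 2 to 73 cells a library, Col4a5 averaged 0.685 UPM and Col4a6 was listed at 0. Col6a5, a minor type VI chain, averaged 29.0 UPM against 1.73 UPM in endothelial cells, with one library, Sham replicate 2, at 89.1 UPM and the others between 6.55 and 26.9 UPM. Col4a1, the partner of Col4a2, was higher in mural cells in 5 of 6 libraries (exact permutation p = 0.0625, adjusted 0.0865). Col15a1, a multiplexin of vessel basement membranes, did not separate fibroblasts from endothelial cells, being higher in fibroblasts in 3 of 6 libraries. In endothelial cells Col4a1 led with 670.9 UPM, followed by Col4a2 with 351.2 UPM and Col18a1 with 267.9 UPM. Col13a1, a transmembrane collagen, was the 1 gene highest in endothelial cells, at 63.1 UPM against 17.5 UPM in Schwann cells. It averaged 155.6 UPM in the blood vascular subset and 0.75 UPM in the lymphatic subset. Col23a1 was nearly level between Schwann cells (131.9 UPM) and endothelial cells (128.2 UPM), with Schwann cells higher in 2 of 6 libraries. In the lymphatic subset Col23a1 was 121.8 to 287.2 UPM. Over all libraries Col8a1 did not separate mural from endothelial cells (106.9 and 70.9 UPM, exact permutation p = 0.688). It was higher in mural cells in the 4 treated libraries and lower there in both Sham libraries. The groups were not tested apart. Within endothelial cells Col8a1 was 0 to 3.93 UPM in the lymphatic subset.

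Schwann cells, the glia of peripheral nerves, carried a set of their own. Col28a1 averaged 212.2 UPM in Schwann cells and 3.22 UPM in fibroblasts. Col24a1 averaged 54.4 UPM against 1.12 UPM, and both genes were higher in Schwann cells in all 6 libraries. The Col24a1 level rested on 1 to 98 UMIs per library. Col5a3 averaged 292.8 UPM in Schwann cells and 198.9 UPM in fibroblasts, with Schwann cells higher in 4 of 6 libraries. Col27a1 averaged 54.4 UPM against 21.7 UPM in mural cells, with one library, Sham replicate 2, at 149.3 UPM and the others between 0 and 52.7 UPM. In lymphocytes, outside the 5 main gates, Col27a1 averaged more, at 133.4 UPM. It was 473.6 and 189.1 UPM in Sham lymphocytes and 12.6 to 85.8 UPM in lymphocytes of the treated libraries. Col20a1 averaged 105.0 UPM against 0.829 UPM, though it was listed at 0 in 2 Schwann cell libraries, those with 25 and 10 cells. Col9a3, Col9a2 and Col26a1 were also at least 5 times higher in Schwann cells than in the next gate, at 21.2, 5.67 and 10.9 UPM, each listed at 0 in the library with 10 cells. Col9a2 was also listed at 0 in IMQ replicate 1, and outside Sham replicate 2 it rested on at most 2 UMIs per library. The most abundant collagen transcripts in the Schwann cell gate were Col1a2 at 814.7 UPM, Col4a1 at 511.6 UPM and Col3a1 at 492.3 UPM. Col1a2 there was 8.20% to 13.4% of its fibroblast level in the same library and Col3a1 3.22% to 7.14%, while the 8 fibroblast markers summed were 17.1% of theirs in Sham replicate 1 and 2.07% to 3.73% in the other libraries. Both genes stood below the markers in Sham replicate 1, and Col3a1 also in IMQ+SHP099 replicate 1, so no expression by Schwann cells can be read from them there. The part of fibroblast RNA in the other libraries was not tested.

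Col17a1 was the leading chain of keratinocytes in all 6 libraries, though narrowly in IMQ replicate 2, at 153.2 UPM against 149.1 UPM for Col3a1. Col17a1 averaged 483.8 UPM in keratinocytes and 10.2 UPM in fibroblasts, a 47.6-fold difference present in all 6 libraries. Col7a1, the anchoring fibril collagen, was shared, with 41.6 UPM in fibroblasts and 32.8 UPM in keratinocytes (exact permutation p = 0.219, adjusted 0.281). Type I and type III transcripts in keratinocytes were low next to fibroblasts, with means of 88.8 UPM for Col3a1 and 74.8 UPM for Col1a2. Col1a1 there was 0.666% to 1.37% of its fibroblast level in the same library, and the 8 fibroblast markers summed were 0.668% to 1.77% of theirs. At that level no expression by keratinocytes can be read from them.

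Within fibroblasts 3 subsets were gated by Coch, Dkk2 and Crabp1 (Coch set), by Plac8, Cxcl13 and Pi16 (Plac8 set) or by Cyp2f2 and Lum (Cyp2f2 set). Of 29 genes at 5 UPM or more, 15 were highest in the Coch set, 9 in the Plac8 set and 5 in the Cyp2f2 set. Col11a1, a minor fibrillar chain, averaged 208.0 UPM in the Coch set and 4.36 UPM in the Cyp2f2 set, and Col7a1 averaged 181.6 UPM against 26.9 UPM. Both were higher in the Coch set in all 6 libraries, but Sham replicate 1 held 13 such cells and no test was made. Col13a1 averaged 26.2 UPM against 1.21 UPM, Col24a1 11.7 UPM against 0.416 UPM in the Plac8 set and Col8a2 7.54 UPM against 0.916 UPM. The Col24a1 mean rested on Sham replicate 2, at 49.95 UPM, with the others between 0 and 7.23 UPM. Between the other subsets, Col14a1, a fibril-associated chain, was 3.18-fold higher in the Plac8 set and Col5a3 1.89-fold higher, in 6 of 6 libraries each. None of 12 genes tested passed the threshold, 5 with an unadjusted exact permutation p = 0.0312 (adjusted 0.075).

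The share of a gate's UMIs that fell on collagen genes was 4.22% and 5.31% in Sham fibroblasts, 2.19% and 2.67% in IMQ fibroblasts and 1.84% and 2.07% in IMQ+SHP099 fibroblasts. All 3 groups were apart, with Sham highest. The mean difference of IMQ minus Sham was -2.33 percentage points and that of IMQ+SHP099 minus IMQ was -0.476, each with an exact two-sided permutation p = 0.33, the smallest that 2 against 2 libraries allow. The Cyp2f2 set had 5.56% and 6.04% in Sham against 2.07% and 2.84% in IMQ. The Plac8 set had 2.91% and 3.08% in Sham against 2.22% and 2.04% in IMQ, and the difference between the subsets was not tested. In mural cells the order was the other way, with 0.423% and 0.869% in Sham and 0.943% and 1.01% in IMQ. With a mitochondrial limit of 5% the mural groups overlapped, at 0.469% and 1.38% in Sham and 1.17% and 1.27% in IMQ. Pericytes made up 2.17% and 27.4% of Sham mural cells and 5.58% and 1.66% of IMQ mural cells. Their part in the mural share was not tested.

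**Figure D2:**
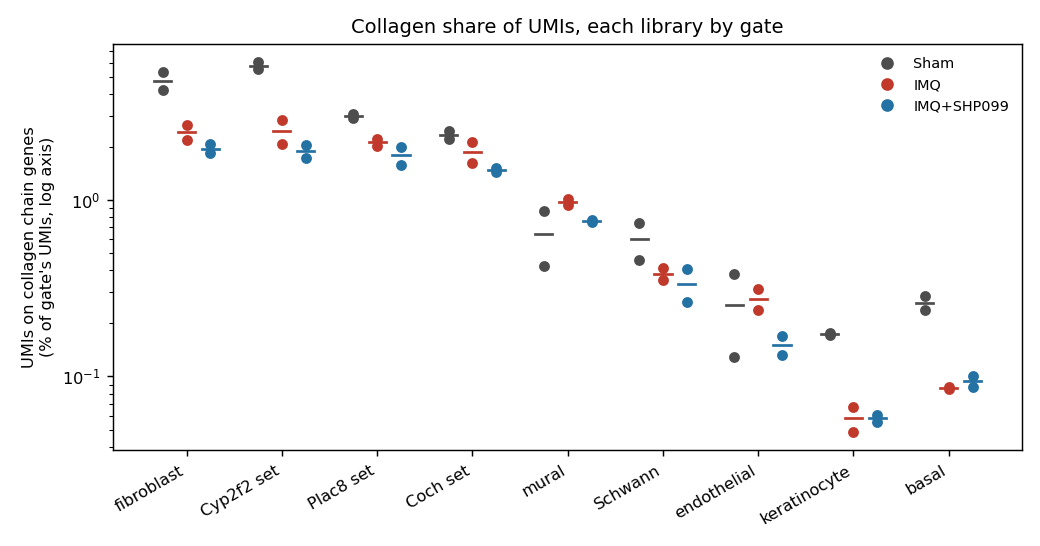
Percent of the UMIs of each gate that fell on the 44 collagen genes (vertical, log axis), with 1 point per library and a bar at the group mean. Sham libraries lie above both treated groups in fibroblasts, in all 3 fibroblast subsets and in keratinocytes, and below IMQ in mural cells.

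Fibroblasts of the groups came largely from different clusters, which limits any comparison of the gate. The Cyp2f2, Oxtr and Cdh4 cluster gave 57.4% of Sham fibroblasts, while the Saa3, Tnc and Cxcl5 cluster gave 18.2% of IMQ and 25.8% of IMQ+SHP099 fibroblasts. The Cyp2f2 set showed the same exchange, 87.4% of it coming from the first cluster in Sham and 56.3% from the second in IMQ. The clusters were built without collagen genes.

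IMQ against Sham asks what the cream changed. In the whole fibroblast gate, edgeR called 0 of 36 collagen genes tested at an adjusted p under 0.05, against 0.39% of all 14620 genes. An unadjusted p under 0.05 by edgeR was held by 14 collagen genes and by 1666 of all genes. DESeq2 called 8 collagen genes and 601 of all genes. The 8 collagen genes not tested were Col2a1, Col4a6, Col9a1, Col9a2, Col10a1, Col19a1, Col22a1 and Col25a1. The median log2 fold change was -0.59 over the collagen genes tested and -0.01 over all genes. All 10 fibrillar chains tested had a negative estimate and 4 of 5 type IV chains a positive one. Col1a1 was 9541 and 12040 UPM in Sham and 3357 and 3742 UPM in IMQ (log2 fold change -1.56 ± 0.40 SE, adjusted p = 0.174). Col1a2 was 12390 and 17850 UPM in Sham and 4601 and 5508 UPM in IMQ. The groups did not overlap for either chain. Col3a1 was less separated, with 12080 and 14440 UPM in Sham and 7619 and 9845 UPM in IMQ, so that its ratio to Col1a1 was 1.27 and 1.20 in Sham and 2.27 and 2.63 in IMQ. Col4a1 was 684.3 and 488.0 UPM in Sham and 993.7 and 844.5 UPM in IMQ, an estimate of 0.64 ± 0.38 (adjusted p = 0.633). Col5a2 differed little, at 895.2 and 1092 UPM in Sham and 876.9 and 963.6 UPM in IMQ. All 6 type VI chains tested had a negative estimate, with Col6a3 at 1376 and 1449 UPM in Sham and 1044 and 1409 UPM in IMQ. The largest positive estimate belonged to Col8a1, at 5.96 and 13.1 UPM in Sham and 56.1 and 175.8 UPM in IMQ (3.65 ± 0.64, adjusted p = 0.0771). Col12a1 was 60.1 and 85.8 UPM in Sham and 206.0 and 305.3 UPM in IMQ (1.86 ± 0.32, adjusted p = 0.0728). Without IMQ replicate 1 the number called was 1.

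The Cyp2f2 set gave the most calls among the fibroblast gates, with 9 of 29 collagen genes called, 7 lower and 2 higher, where 3.74% of all genes were called. Among fibrillar chains, Col1a1 fell from 14890 and 14790 UPM in Sham to 3094 and 4334 UPM in IMQ (log2 fold change -1.99 ± 0.45, adjusted p = 0.0479). Col1a2 fell from 20740 and 22660 UPM to 4270 and 6051 UPM (-2.05 ± 0.44, adjusted p = 0.0394). Col11a1 fell from 10.2 and 11.4 UPM to 0.929 and 2.63 UPM (-2.51 ± 0.51, adjusted p = 0.0332). Sham and IMQ libraries were apart for all 3 chains. Of the chains that associate with fibrils or basement membranes, Col16a1 fell from 685.8 and 722.4 UPM to 167.7 and 230.5 UPM (-1.80 ± 0.30, adjusted p = 0.0152), and Col15a1 from 416.3 and 553.3 UPM to 74.0 and 138.2 UPM (-2.15 ± 0.33, adjusted p = 0.0107). Col6a6, a minor type VI chain, fell from 25.6 and 18.0 UPM to 3.1 and 4.02 UPM. Without IMQ replicate 1 the number called fell to 2 and without IMQ replicate 2 to 5.

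Col8a1 and Col23a1 were the 2 collagen genes that rose in the Cyp2f2 set. Col8a1, a short-chain network collagen known from vessel walls, rose from 4.42 and 3.04 UPM to 14.8 and 38.2 UPM (log2 fold change 3.05 ± 0.52, adjusted p = 0.0157). Col23a1, a transmembrane collagen, rose from 22.5 and 25.2 UPM to 83.8 and 65.8 UPM (1.70 ± 0.30, adjusted p = 0.0188). Col17a1 was also called lower, from 50.8 and 11.7 UPM to 1.24 and 1.62 UPM. Keratins in the Cyp2f2 set were 2.52% and 1.28% of their keratinocyte level in Sham and 0.505% and 0.508% in IMQ, and their part in the Col17a1 result was not tested.

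**Figure D3:**
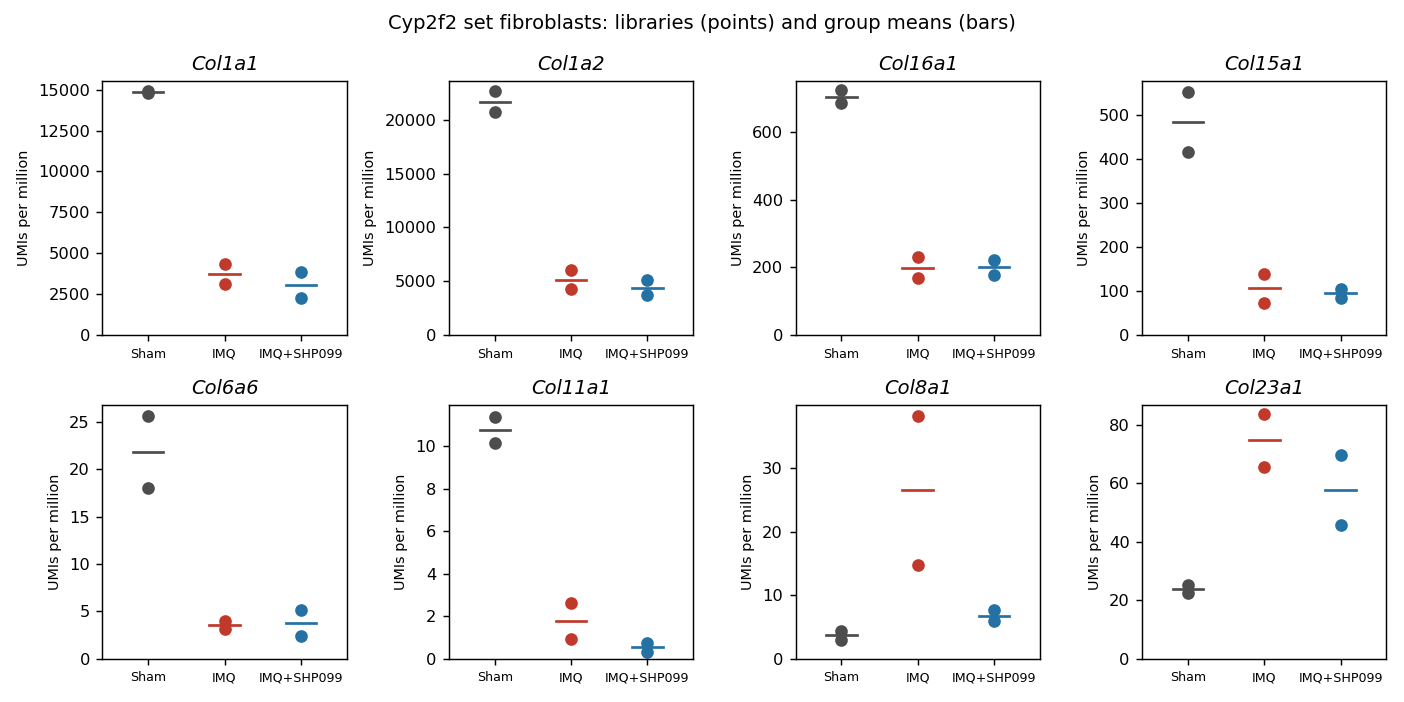
Levels in UPM of 8 collagen genes in the Cyp2f2 set of fibroblasts, with 1 point per library and a bar at the group mean, each panel starting at 0. Col1a1, Col1a2, Col16a1, Col15a1, Col6a6 and Col11a1 are high in both Sham libraries, and Col8a1 and Col23a1 are high in both IMQ libraries.

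In the Plac8 set 2 of 28 collagen genes were called, both higher, where 0.414% of all genes were called. Col8a1 rose from 0.447 and 2.24 UPM to 43.4 and 60.4 UPM (5.35 ± 0.68, adjusted p = 0.033), a Sham level that rests on 1 and 4 UMIs. Col12a1 rose from 7.60 and 21.3 UPM to 192.3 and 149.8 UPM (3.65 ± 0.55, adjusted p = 0.0464). Neither call remained without Sham replicate 1 or without Sham replicate 2. The gate drew on other clusters in IMQ, since a Smpd3, Inmt and Dpp4 cluster gave 90.2% of the set in Sham and 58.1% in IMQ, where a Thbs4, Hmcn2 and Myoc cluster gave 25.3%. With clusters in place of gates the Col12a1 estimate was 0.84 (adjusted p = 0.335). In the Coch set 2 of 23 were called, both lower, where 2.35% of all genes were called. Col15a1 fell from 403.6 and 814.9 UPM to 76.5 and 144.9 UPM, and Col14a1 from 41.8 and 262.6 UPM to 1.60 and 11.0 UPM (-4.70 ± 0.68, adjusted p = 0.00482), with 3 UMIs in Sham replicate 1. Here too the clusters differed, a Coch, Dkk2 and Fmod cluster giving 40.6% of the set in Sham and 83.4% in IMQ, and a Rspo3, Mdk and Hhip cluster 38.7% in Sham. DESeq2 did not call Col14a1 (adjusted p = 0.144). The number called there was 0 without Sham replicate 2, 1 without IMQ replicate 1 and 5 without IMQ replicate 2.

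In mural cells 4 of 26 collagen genes were called, 2 in each direction, where 0.401% of all genes were called. Col8a1 rose from 15.9 and 12.7 UPM to 149.6 and 163.6 UPM (3.74 ± 0.30, adjusted p = 0.00823). Col12a1 rose from 61.5 and 34.1 UPM to 206.3 and 202.2 UPM (2.36 ± 0.36, adjusted p = 0.0457). Col14a1 fell from 41.6 and 37.2 UPM to 2.75 and 6.20 UPM (-2.86 ± 0.38, adjusted p = 0.0347), and Col4a6, a basement membrane chain of smooth muscle, from 25.8 and 31.7 UPM to 9.22 and 9.26 UPM (-1.47 ± 0.23, adjusted p = 0.0493). Col1a1 was 138.8 and 491.4 UPM in Sham and 470.8 and 494.3 UPM in IMQ, groups that overlap (0.81 ± 0.44, adjusted p = 0.393). The 8 fibroblast markers summed in mural cells were 0.237% and 1.76% of the fibroblast level in Sham and 2.30% and 2.36% in IMQ, while Col3a1 there was 7.96% to 35.1% of its fibroblast level. The part of fibroblast RNA in these levels was not tested. The mix of clusters also shifted, a Timp4, Sncg and Mustn1 cluster giving 44.4% of Sham and 68.0% of IMQ mural cells. The number called was 0 without Sham replicate 2, 8 without Sham replicate 1, 1 without IMQ replicate 1 and 2 without IMQ replicate 2, and it was 0 with clusters in place of gates or with a mitochondrial limit of 5%. Of 4 type IV chains tested, Col4a1 and Col4a2 had positive estimates and Col4a5 and Col4a6 negative ones. Col4a5 was 154.6 and 139.8 UPM in Sham and 75.4 and 75.9 UPM in IMQ (-0.79 ± 0.36, adjusted p = 0.323). Col4a1 was 612.6 and 824.4 UPM in Sham and 1393 and 1222 UPM in IMQ (1.04 ± 0.25, adjusted p = 0.114), and Col18a1 was 529.3 and 427.7 UPM against 971.1 and 1133 UPM (1.29 ± 0.29, adjusted p = 0.0911).

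**Figure D4:**
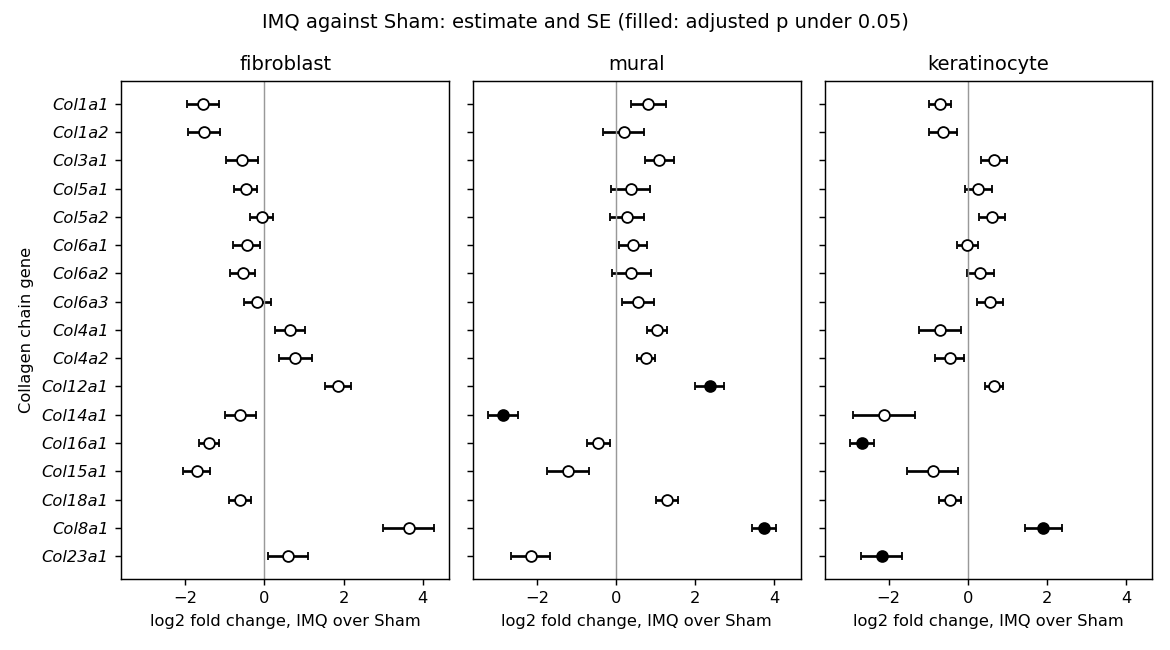
Log2 fold change of IMQ over Sham with its SE (horizontal) for 17 collagen genes (vertical) in 3 gates, filled where the edgeR adjusted p was under 0.05. Col8a1 lies to the right of 0 in all 3 gates, though at a few UPM in keratinocytes, and Col1a1 and Col1a2 lie to the left in fibroblasts.

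In keratinocytes 8 of 30 collagen genes tested were called, 7 lower and 1 higher, where 13.5% of all genes were called. In the basal subset 15 of 26 were called, 14 lower and 1 higher, where 21.6% of all genes were called. The gates drew on different clusters, since a Krt15, Fcgbp and Ccl27a cluster gave 68.6% of Sham basal cells and an Il19 and Nppb cluster 58.8% of IMQ basal cells. Col17a1 fell in basal cells from 1731 and 1727 UPM to 530.9 and 440.6 UPM (-1.72 ± 0.36, adjusted p = 0.00937). Col7a1 fell from 104.8 and 115.8 UPM to 33.9 and 42.4 UPM (-1.42 ± 0.29, adjusted p = 0.00853). The head-to-head chains both fell, Col4a6 from 29.7 and 28.2 UPM to 0.761 and 2.16 UPM (-4.33 ± 0.47, adjusted p = 0.00041), and Col4a5 from 21.4 and 31.9 UPM to 2.74 and 4.04 UPM (-2.85 ± 0.34, adjusted p = 0.000696). Col16a1 fell from 74.7 and 94.7 UPM to 7.23 and 10.8 UPM (-3.12 ± 0.28, adjusted p = 0.000163), and Col23a1 from 88.0 and 51.8 UPM to 15.1 and 18.3 UPM. Sham libraries lay above IMQ libraries for each of these 6 genes. Over all keratinocytes the same 6 genes were called lower, Col17a1 from 1196 and 848.5 UPM to 175.8 and 153.2 UPM. Col27a1, a fibrillar chain, was the seventh, at 2.32 and 9.85 UPM in Sham and 0.528 and 1.08 UPM in IMQ. The basal subset was 57.47% and 42.65% of keratinocytes in Sham and 25.91% and 27.59% in IMQ. The part of this shift in the whole-gate calls was not tested. The number called was 3 in all keratinocytes without either IMQ library, and in basal cells it was 3 without IMQ replicate 1, 7 without IMQ replicate 2 and 8 without Sham replicate 2.

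**Figure D5:**
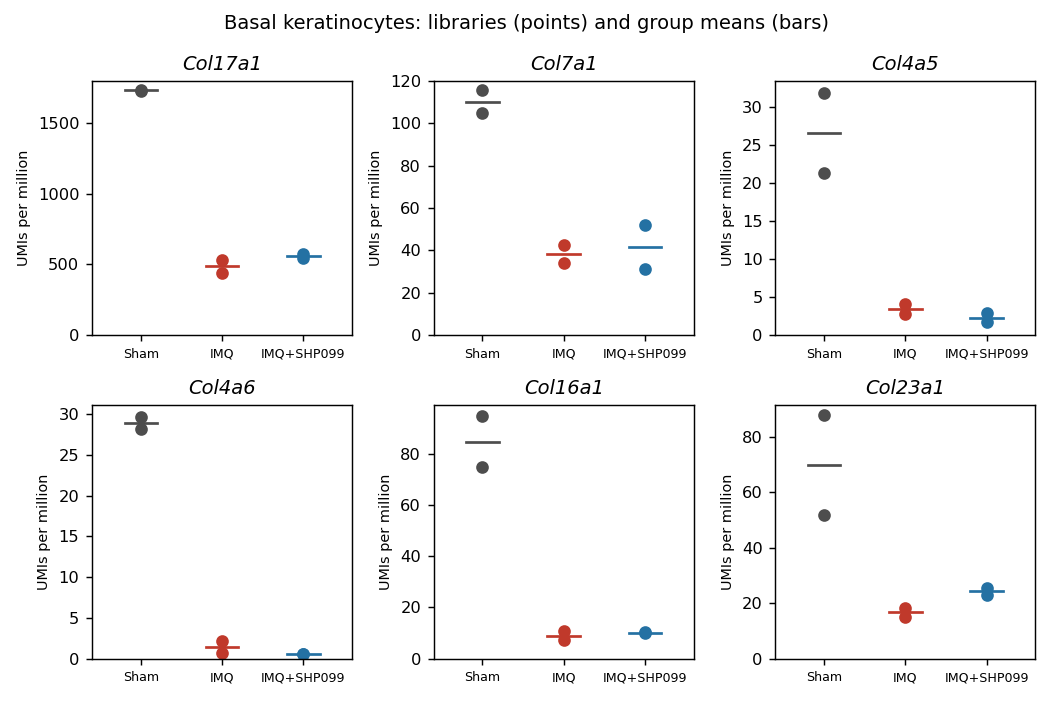
Levels in UPM of 6 collagen genes in basal keratinocytes, with 1 point per library and a bar at the group mean, each panel starting at 0. Both Sham libraries lie above all 4 treated libraries for each gene, and IMQ and IMQ+SHP099 lie close together.

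The remaining basal calls depended on how the cells were chosen. Col1a1, Col1a2, Col4a1, Col4a2, Col5a3, Col6a1, Col15a1 and Col27a1 were called lower in the basal gate, but with clusters in place of gates their estimates turned positive, from 0.11 for Col4a2 to 0.83 for Col4a1. No direction is therefore given for them. Col12a1 was called higher, from 13.0 and 27.1 UPM to 35.5 and 45.0 UPM (1.20 ± 0.32, adjusted p = 0.0246). In all keratinocytes Col8a1 was also called higher, at 1.48 and 1.35 UPM in Sham and 2.84 and 6.36 UPM in IMQ. The fibroblast markers summed there were 0.668% and 0.862% of the fibroblast level in Sham and 1.42% and 1.77% in IMQ, and Col8a1 in fibroblasts was 5.96 and 13.1 UPM in Sham and 56.1 and 175.8 UPM in IMQ. The part of fibroblast RNA in this call was not tested.

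Endothelial cells and Schwann cells gave no calls among collagen genes. In endothelial cells edgeR called 0 of 19, where 0.0983% of all 10173 genes were called. There 3 of the 19 had an unadjusted p under 0.05, against 1464 of all genes, and DESeq2 called 1, against 72. The mix of vessel types differed, with 354 of 485 endothelial cells blood vascular in Sham replicate 2 and 20 of 104 in Sham replicate 1. Taken apart, blood vascular cells gave 0 of 16 collagen genes and 0 of all 7770 genes, with 3 and 1187 at an unadjusted p under 0.05 and 0 and 20 called by DESeq2. Col4a1 in blood vascular cells was 388.0 and 1497 UPM in Sham and 1547 and 1216 UPM in IMQ, the low value coming from the library with 20 such cells. Lymphatic cells gave 0 of 12, with 2 unadjusted and 0 by DESeq2, where 0.882% of all 7598 genes were called. Over all genes 1017 were unadjusted and 62 by DESeq2. Col4a1 in lymphatic cells varied little, from 345.5 to 417.7 UPM over all 6 libraries. In Schwann cells 0 of 21 were called, with 8 unadjusted and 0 by DESeq2, where 0.123% of all 4053 genes were called. Over all genes in that gate 177 were unadjusted and 3 by DESeq2. Without Sham replicate 1 the number called was 3 in endothelial cells and 5 in Schwann cells, and without IMQ replicate 2 it was 1 in Schwann cells. Col1a2 in Schwann cells was 1016 and 1588 UPM in Sham and 586.7 and 739.3 UPM in IMQ (-0.92 ± 0.41, adjusted p = 0.999). The fibroblast markers in that gate were 17.1% and 2.07% of the fibroblast level in Sham and 2.37% and 3.47% in IMQ, and their part in the Col1a2 levels was not tested.

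IMQ+SHP099 against IMQ asks which levels the inhibitor moved. edgeR called no collagen gene in any of the 11 gates and subsets. DESeq2 called none either, with 0 to 17 called over all genes. By edgeR the number of collagen genes at an unadjusted p under 0.05 ran from 0 of 28 in the Plac8 set and 0 of 12 in lymphatic cells to 6 of 16 in blood vascular cells. Over all genes it was 138 of 11834, 268 of 7598 and 323 of 7770 in these gates, and 136 of 14620 in fibroblasts. Without IMQ replicate 1, edgeR called 1 in the Coch set and 1 in blood vascular cells. Over all genes edgeR called 0% in 10 of these gates and 0.0132% in lymphatic cells. In fibroblasts Col8a1 was 56.1 and 175.8 UPM in IMQ and 21.4 and 52.2 UPM in IMQ+SHP099 (-1.58 ± 0.58, adjusted p = 1), the one gene of 36 there with an unadjusted p under 0.05. Col1a1 was 3357 and 3742 UPM in IMQ and 2437 and 3791 UPM in IMQ+SHP099, groups that overlap. In the Cyp2f2 set Col8a1 was 14.8 and 38.2 UPM in IMQ and 5.96 and 7.63 UPM in IMQ+SHP099 (-1.87 ± 0.45, unadjusted p = 0.00271 and adjusted p = 1 by edgeR). In mural cells Col4a6 was 9.22 and 9.26 UPM in IMQ and 19.9 and 17.9 UPM in IMQ+SHP099 (1.07 ± 0.23, adjusted p = 1). Col17a1 in basal cells was 530.9 and 440.6 UPM in IMQ and 571.5 and 543.6 UPM in IMQ+SHP099. A miss of the threshold with 2 libraries a group does not show that these levels were equal.

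The enzymes, receptors and signals around collagen were counted as lists. Of 32 genes of biosynthesis and crosslinking, all were tested in fibroblasts and 0 passed in IMQ against Sham, where 0.39% of all genes passed. Of these 32, 5 had an unadjusted p under 0.05 and 3 were called by DESeq2. Over all 14620 genes in fibroblasts, the background for each list, the 2 numbers were 1666 and 601. In keratinocytes 5 of 30 passed, 3 higher and 2 lower, near the 13.5% of all genes. Lox, a lysyl oxidase that crosslinks collagen, rose there by 2.39 ± 0.40 on the log2 scale, and Adamts14, which trims procollagen, fell by 5.30 on the log2 scale. In mural cells Adamts2, another procollagen protease, was the 1 gene of 29 that passed (1.63 ± 0.25, adjusted p = 0.0493). In the Coch set Lox rose (2.47 ± 0.48, adjusted p = 0.0246) and Plod2, a lysyl hydroxylase, fell (-3.32 ± 0.53, adjusted p = 0.00922), and in the Cyp2f2 set Colgalt2, a collagen galactosyltransferase, fell (-2.75 ± 0.49, adjusted p = 0.019). The Coch set held 13 cells in Sham replicate 1. Calls of single list genes were not followed with libraries left out or with other gates. Of 9 collagen receptors, 0 of 8 tested passed in fibroblasts, with 2 unadjusted and 0 by DESeq2. Itga2, a chain of a collagen-binding integrin, fell in keratinocytes (-1.22 ± 0.28, adjusted p = 0.0264), the 1 of 8 tested. Of 18 genes of the TGF-beta axis, a main inducer of matrix genes, 0 passed in fibroblasts, with 8 unadjusted and 2 by DESeq2. In keratinocytes, where 13.5% of all genes passed, 3 passed, among them Ltbp4 and Smad3, which were lower. Ltbp2 was called higher in the Coch set, Ctgf in the Plac8 set (3.45 ± 0.46, adjusted p = 0.033), and Tgfb2 was called lower in lymphatic cells (-2.14 ± 0.29, adjusted p = 0.0045). In basal cells 4 of 27 genes of biosynthesis, 1 of 6 receptors and 6 of 18 genes of the TGF-beta axis passed. The first 2 counts lie below the 21.6% of all genes called there and the third above it. No gene of the 3 lists passed in IMQ+SHP099 against IMQ in any gate by edgeR or DESeq2, with 0 to 4 genes of a list at an unadjusted p under 0.05. Over all genes that number ran from 115 in Schwann cells to 494 in basal cells.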

How the data were processed

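The authors made the deposited matrices of raw UMI counts per gene and barcode with Cell Ranger on the mouse genome GRCm38 (mm10), and no normalization was applied. Barcodes under 100000 UMIs, 6500 genes and 10% mitochondrial UMIs were kept, following the study's methods. Each cell was scored from 0 to 1 by its markers and entered a gate at a score of at least 0.25 and a margin of 0.1 over the next class, and a subset needed 2 of its markers detected. Doublets were kept, and leaving out cells with a Scrublet score over 0.2 was an alternative. UMIs were summed per library and gate and fitted with edgeR 4.0.16 (R 4.3.3) by the quasi-likelihood test, with TMM, filterByExpr, all 6 libraries and group as the only term. P-values were Benjamini-Hochberg adjusted over all genes tested, with a threshold of 0.05, and the SE is the log2 fold change over the square root of F. DESeq2 1.42.0 was an alternative. Order tests used log2(UPM + 1). The fit was tested on simulated data, where a first criterion on the absolute error of the fold changes was not met and was replaced by one on their signed bias. The rule named genes past the threshold, the 3 highest genes of a gate, genes at least 5 times higher in a gate than in the next and, of the other lists, at most 3 genes per direction; levels compared between gates are given as means over libraries, and per-library values of basal calls that turned with the gating are left out. The highest and next gates were ranked on the libraries tested. The members, lists and rules were chosen with earlier results of these data known. Coordinates are from GENCODE vM21 on GRCm38. RefSeq promoter entries matched 35 of the 44 genes. Counts carry counting error, and PCR copies were collapsed by UMI. The values of 1 gene of the TGF-beta list are not reported here.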

Additional observations from a re-analysis of the deposited data

Results flagged for a closer look

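Col3a1 was picked out because the libraries of IMQ and Sham were apart in opposite directions in 2 cell types. Its log2 fold change was 1.1 in mural cells and -1.33 in Schwann cells, and neither passed the threshold. The difference between the cell types was not tested. In mural cells Col3a1 was 961.5 and 2301 UPM in Sham and 2674 and 3379 UPM in IMQ, and in Schwann cells it was 755.2 and 1031 UPM in Sham and 252.3 and 429.1 UPM in IMQ. The Schwann cell gate held 25 cells in Sham replicate 1. Fibroblast markers summed in that gate were 17.1% and 2.07% of their fibroblast level in Sham and 2.37% and 3.47% in IMQ, and Col3a1 in fibroblasts was 12080 and 14440 UPM in Sham and 7619 and 9845 UPM in IMQ. The part of fibroblast RNA in the Schwann cell levels was not tested.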

How the results depend on the processing

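The number of collagen genes called moved with the processing, in IMQ against Sham unless stated. DESeq2 gave 8 in fibroblasts, 5 in the Plac8 set and 1 in endothelial cells, against 0, 2 and 0. Over all genes it called 601, 325 and 72 in these gates, against 57, 49 and 10 by edgeR. With no filter on low counts the number was 9 in fibroblasts, 7 in the Coch set, 6 in the Plac8 set, 15 in the Cyp2f2 set, 13 in mural, 5 in endothelial, 3 in blood vascular, 1 in lymphatic and 1 in Schwann cells, and in IMQ+SHP099 against IMQ it was 1 in fibroblasts, 1 in the Coch set, 2 in the Cyp2f2 set, 1 in mural cells, 9 in endothelial cells, 5 in blood vascular cells, 1 in keratinocytes and 1 in basal cells. With only the groups compared it was 5 in the Plac8 set, 4 in the Cyp2f2 set, 1 in mural cells and 5 in keratinocytes. A stricter gate gave 1 in fibroblasts, 0 in the Coch set, 1 in the Plac8 set, 2 in mural and 1 in blood vascular cells. Clusters in place of gates and a mitochondrial limit of 5% each gave 0 in mural cells, and leaving doublets out gave 1 in mural and 9 in basal cells. Counts over all genes are given for DESeq2 alone. No change particular to collagen genes can therefore be read from the other numbers here and below. The causes were not tested.

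A replicate block gave 3 in fibroblasts, 6 in the Plac8 set and 1 in lymphatic cells. The labels share replicate numbers and give no pairing, and deviations of same-numbered libraries correlated at -0.0819 to 0.233. Of 40 calls named, 39 held under the block, the exception being Col4a6 in mural cells. The number that held was 12 without IMQ replicate 1, 20 without Sham replicate 2, 21 without IMQ replicate 2, 33 without Sham replicate 1, 25 with only the groups compared, 30 with doublets left out and 19 of 37 with clusters in place of gates.

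Leaving out 1 library at a time gave 0 to 1 in fibroblasts, 0 to 5 in the Coch set, 0 to 2 in the Plac8 set, 2 to 12 in the Cyp2f2 set, 0 to 8 in mural, 0 to 3 in endothelial and 0 to 5 in Schwann cells, 3 to 9 in keratinocytes and 3 to 17 in basal cells, and in IMQ+SHP099 against IMQ 0 to 1 in the Coch set and in blood vascular cells. A group left with 1 library was assumed to vary like the others.

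In basal cells the estimates that turned with clusters in place of gates were 0.28 for Col15a1, 0.19 for Col27a1, 0.61 for Col1a2, 0.18 for Col6a1, 0.83 for Col4a1, 0.11 for Col4a2, 0.51 for Col5a3 and 0.16 for Col1a1, and with doublets left out 0.043 for Col1a2. No other named call changed direction under the alternatives run. The difference in collagen share ranged from -2.88 to -1.79 (IMQ minus Sham) and from -0.716 to -0.235 (IMQ+SHP099 minus IMQ) with 1 library left out. Leave-one-out was not run for the exact permutation tests of order, where 5 libraries cannot go below p = 0.0625. Schwann cells and the Coch set held as few as 10 and 13 cells in a library, which limits precision there.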
